A study of Mus musculus with 4 samples.

Results

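Transcripts of the NF-kB system were followed in CD4 T cells from mice with graft-versus-host disease (GVHD), through 31 listed genes out of the 31053 genes in the count matrices. The genes were listed by name and role, with earlier results of these data known. They comprise 5 subunits of the transcription factor, 9 inhibitors, 13 adaptors, ubiquitin ligases and kinases of the signalling cascade, and 4 other target genes. All 31 were present in both RNA libraries and all 31 passed the filter on low counts in every comparison. The sorted cells were TS1 Tg CD4 T cells of the strain BALB/c RAG2-/-, in which the T cells carry a transgenic receptor. Sources were the spleen, the colon, the skin and, in the small intestine, the intraepithelial and lamina propria compartments, sampled 4 weeks after the transplant. Cells of each tissue received their own hashing antibody and all were then pooled into 1 droplet run of 3′ RNA counting per replicate. The 2 replicates each gave an RNA library and a library of the hashing antibodies. Every group compared here therefore came from GVHD mice of the same strain and time, and no untreated or healthy cells were analysed.

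NF-kB factors are dimers of Rel-family subunits that are held in the cytoplasm by IkB proteins. Signals from the T cell receptor, co-stimulatory receptors, TNF-family receptors and IL-1-family receptors activate IkB kinase, which marks IkB for destruction and frees the dimers to enter the nucleus. Several of the genes that NF-kB then induces encode its own inhibitors, such as Nfkbia and Tnfaip3, so that transcripts of inhibitors are also a common readout of the pathway; transcript counts do not measure nuclear NF-kB. In T cells the system serves activation, survival and cytokine production. The inhibitor list used here includes the nuclear IkB genes Nfkbid, Nfkbiz and Bcl3, so its counts are not of genes that only inhibit.

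Groups were defined within each library by the detection of a gene in the cell. The 6 splits set cells with a UMI (a counted RNA molecule) of Pdcd1, of both Itgae and Cd8a, of Tcf7, of Tcrg-C1, of Il10, or of Il13 or Csf2 against all other T cells. A further 2 comparisons set Tcf7-detected cells against Itgae and Cd8a co-detected cells, and Il13 or Csf2 cells against Il10 cells. T cells were barcodes with at least 1000 UMIs and 500 genes, at most 10% mitochondrial UMIs and a UMI of Cd3e, Cd3d or Cd3g. There were 18972 of these in replicate 1, with a median of 2689 UMIs, and 15857 in replicate 2, with a median of 3702 UMIs. The whole libraries held 89427990 and 108082997 UMIs. Of barcodes that passed the other filters, 99.7% had a Cd3 UMI. Each cell was thinned to 1500 UMIs before it was assigned to a class, which left 15260 and 14839 cells, and 3712 and 1018 cells were too shallow to enter.

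The UMIs of a class were summed per library, giving 4 sums in each comparison, and tested over all genes with edgeR's quasi-likelihood test with the library as a block. Values are CPM, the UMIs of a gene scaled to the usual common total of a class, replicate 1 before replicate 2. Changes are log2 fold changes with their standard error (SE), and a gene was called where its Benjamini-Hochberg adjusted p over all tested genes was under 0.05. Both libraries showed the direction of every called change of a member. Nothing in the labels says that the replicates came from separate animals, so these p-values do not measure the spread between animals. With 2 pooled libraries and 1 residual degree of freedom, the test shares its estimate of spread across all genes. A small p therefore does not measure the spread of that gene alone between the libraries. Where sums of called genes are described as separate, these are the same 4 sums that gave the call. The share of all genes with separate sums was not computed, so separation adds no further support. All 6 splits divide the same cells, so their results share data and are given side by side. No hashtag feature was present in the count matrices, so no cell could be given a tissue, and a class cannot be told apart from the tissue its cells came from. In sums over cells, fewer expressing cells and less RNA per cell cannot be told apart. A 3′ count is not divided by transcript length, so levels of different genes are compared only as molecules counted. A total of 578 cell barcodes occurred in both libraries. Without them the members called numbered 20 for Pdcd1, 21 for Itgae with Cd8a, 8 for Tcf7, 4 for Tcrg-C1, 12 for Il10 and 20 for Il13 or Csf2, and 19 and 13 in the direct comparisons of Tcf7 and of Il13 or Csf2. In that order 1512, 3481, 1046, 253, 750, 1899, 2493 and 1177 genes were called in all. The main runs called 1773, 3810, 826, 268, 603, 1965, 2558 and 1215 genes.

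Detection of a split gene can also come from free RNA in a droplet. Thinned cells in which neutrophil markers made up at least 5% of UMIs, 73 in replicate 1 and 78 in replicate 2, gave a background; their median depth before thinning was 4076 and 10540 UMIs. These droplets also held T cell RNA, with a Cd3e UMI in 50.7% and 23.1% of them. Pdcd1 was detected in 14.7% and 12.5% of T cells, against 4.11% (exact 95% interval 0.856 to 11.5%) and 1.28% (0.0325 to 6.94%) of neutrophil-marker cells. Itgae and Cd8a were both detected in 15.19% and 15.96% of T cells, against 8.22% (exact 95% interval 3.08 to 17.0%) in replicate 1 and 0 of 78 in replicate 2, which allows a share of up to 3.85%; the share in replicate 1 lay inside the counting error of the background. Tcf7 was detected in 6.25% and 6.09% of T cells, against 0 of 73, which allows up to 4.11%, and 1.28% (0.0325 to 6.94%); the share in replicate 2 lay inside that error. Tcrg-C1 was detected in 1.74% and 2.04% of T cells, and in 0 of 73 and 0 of 78 neutrophil-marker cells, so the share in T cells was under what a count of 0 allows. Il10 was detected in 3.96% and 5.00% of T cells, against 1.37% (0.0347 to 7.40%) and 2.56% (0.312 to 8.96%), so its share lay inside the counting error of the background. Il13 or Csf2 was detected in 11.003% and 9.54% of T cells, against 6.85% (2.26 to 15.3%) and 5.13% (1.41 to 12.6%), also inside that error. The intervals cover counting error only. Markers of other cell types moved with several splits. MHC class II markers were lower for 4 of 5 genes in both the Pdcd1 and the Itgae with Cd8a class. Erythroid markers were lower for 4 of 4 in the Pdcd1 class and in the Il13 or Csf2 class. In the Itgae with Cd8a class 3 of 4 were called higher, although their sum was 11.5 and 278 CPM in co-detected cells, against 106 and 104 CPM in the others, so the libraries went opposite ways. Counts of members called without cells in which any such list reached 1% of UMIs are given with each split. Foxp3, which defines regulatory T cells, had at most 4 UMIs in any detected class and library of the 6 splits, and Cd4 was at 151 to 260 CPM in every detected class.

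Nfkbia, which encodes the inhibitor IkB-alpha, was by far the most abundant of the 31 transcripts. It stood at 1034 and 1112 CPM in the 2 libraries, a mean of 1073 ± 55.2 CPM (SD, n = 2), and was detected in 57.9% and 58.3% of thinned cells. Traf1, an adaptor of TNF-family receptors that is itself induced by NF-kB, followed at 268 and 280 CPM. Tnfaip3, the ubiquitin-editing enzyme that ends signalling to IkB kinase, was at 230 and 306 CPM, and these neighbours did not differ beyond the spread between libraries. Among subunits Nfkb1, the precursor of a DNA-binding subunit, was at 127 and 128 CPM. Rel, which encodes the lymphoid subunit c-Rel, was at 84.3 and 98.95 CPM. Relb and Nfkb2, partners in the alternative pathway, were at 58.5 and 59.9 CPM and at 34.2 and 35.7 CPM. Rela, the most widely expressed activating subunit, was at 40.3 and 39.2 CPM, so more c-Rel than RelA transcripts were counted in both libraries. Nfkbia lies at chr12:55489410-55492647 and Nfkb1 at chr3:135584655-135691547, both on the - strand of mm10 (GENCODE M21). The lowest were Traf6, a ubiquitin ligase of the IL-1 receptor pathway, at 8.21 and 9.30 CPM, and Cd83, a surface protein of activated lymphocytes, at 12.3 and 7.62 CPM. Summed by role, inhibitors made up 1598 and 1768 CPM, adaptors, ligases and kinases 954.8 and 1016 CPM, subunits 344 and 362 CPM and the 4 other targets 325 and 324 CPM. Nfkbia alone made up 1034 and 1112 CPM of the inhibitors, so sums over members weigh this gene most. At 1500 UMIs a cell showed a median of 3 and 4 of the 31 genes and at most 14 and 13, and 3.72% and 3.63% of cells showed none. The 31 genes took 0.357% and 0.379% of the UMIs. In barcodes under 100 UMIs, which hold mostly free RNA, the same genes were at like levels, with ratios of cells to those barcodes between 0.66 and 1.35.

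**Figure D1:**
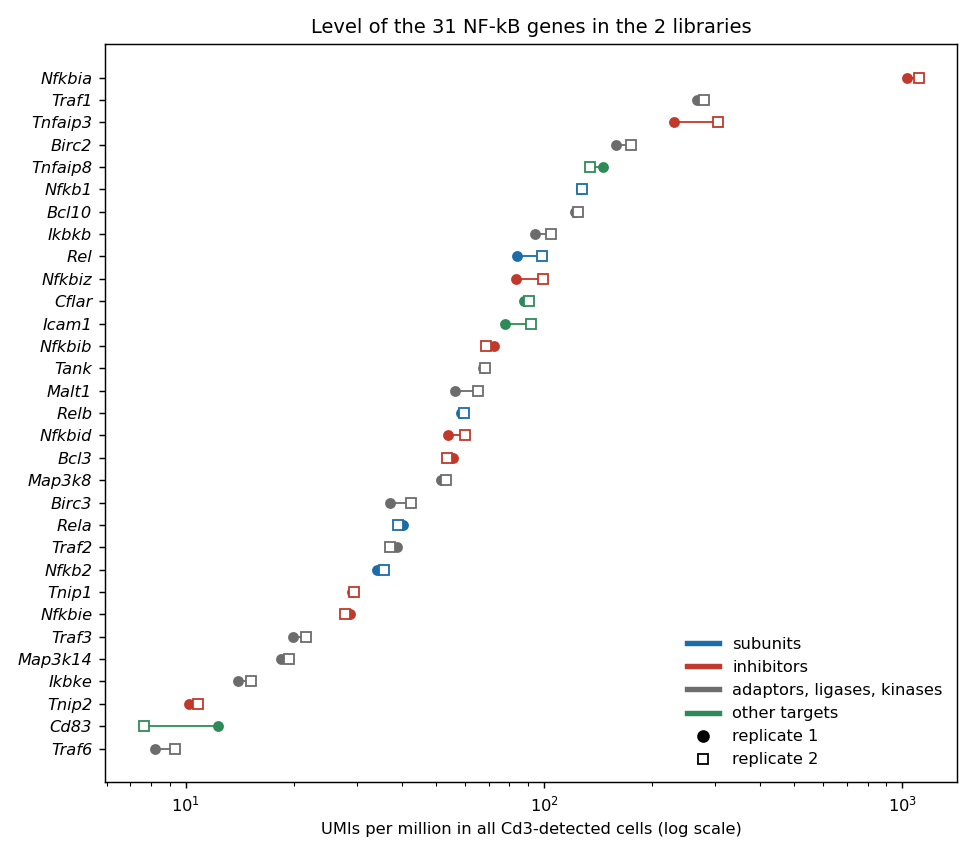
CPM (log scale) of each of the 31 genes over all Cd3-detected cells, unthinned, as a filled circle for replicate 1 and an open square for replicate 2, coloured by role. Nfkbia stands apart at 1034 and 1112, and the remaining genes run down to Traf6 at 8.21 and 9.30.

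Promoter sequence from RefSeq (GRCm38.p6; 250 bases before to 50 after the transcript start) was at hand for 23 of the 31 genes. A match to the kappaB consensus, read on both strands and by its name, was present for 11 of the 23 genes: Bcl10, Bcl3, Nfkb2, Nfkbia, Nfkbid, Nfkbie, Rel, Tank, Tnfaip3, Tnip1 and Traf3. Of all 27025 genes with a promoter in the table, 5.14% had a match. Shown here are 4 genes with a match that recur in the results below, chosen after their values were seen. They are Nfkbid at chr7:30422156-30422455 on the + strand, Tnfaip3 at chr10:19015361-19015660 on the - strand, Rel at chr11:23770920-23771219 on the - strand and Nfkbia at chr12:55492598-55492897 on the - strand. Each is read 5′ to 3′ in the direction of the gene, and capitals mark the kappaB matches. They begin 226 and 181 bases before the start in Nfkbid, 125 and 12 bases in Tnfaip3, 92 bases in Rel and 29 bases in Nfkbia.
Nfkbid: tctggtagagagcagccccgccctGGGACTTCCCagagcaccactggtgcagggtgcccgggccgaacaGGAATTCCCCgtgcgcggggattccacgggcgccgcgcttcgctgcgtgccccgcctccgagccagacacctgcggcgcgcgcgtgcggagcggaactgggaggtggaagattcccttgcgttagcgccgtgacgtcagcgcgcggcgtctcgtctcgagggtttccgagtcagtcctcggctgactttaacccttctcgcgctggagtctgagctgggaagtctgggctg
Tnfaip3: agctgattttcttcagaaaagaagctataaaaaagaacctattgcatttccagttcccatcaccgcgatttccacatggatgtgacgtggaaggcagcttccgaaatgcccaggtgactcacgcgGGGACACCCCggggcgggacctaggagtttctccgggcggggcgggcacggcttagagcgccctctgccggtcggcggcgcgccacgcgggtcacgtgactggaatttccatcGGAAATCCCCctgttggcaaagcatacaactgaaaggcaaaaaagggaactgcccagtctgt
Rel: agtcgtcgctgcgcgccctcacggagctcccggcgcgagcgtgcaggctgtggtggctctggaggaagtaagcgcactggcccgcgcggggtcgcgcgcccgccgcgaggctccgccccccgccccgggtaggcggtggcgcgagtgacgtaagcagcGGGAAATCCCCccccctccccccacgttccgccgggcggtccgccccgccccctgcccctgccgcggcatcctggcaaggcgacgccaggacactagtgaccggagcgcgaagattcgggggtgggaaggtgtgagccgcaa
Nfkbia: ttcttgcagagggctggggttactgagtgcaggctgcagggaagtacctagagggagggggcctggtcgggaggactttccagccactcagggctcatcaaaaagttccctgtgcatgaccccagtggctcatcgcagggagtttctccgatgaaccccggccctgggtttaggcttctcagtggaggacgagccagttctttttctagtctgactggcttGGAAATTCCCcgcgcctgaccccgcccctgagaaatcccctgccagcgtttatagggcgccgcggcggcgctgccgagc
A match describes these letters only; Bcl10 and Traf3 also have one, and neither was called in any of the 6 splits.

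Cells with a UMI of Pdcd1, the inhibitory receptor PD-1, carried more transcripts of most of the pathway than the remaining cells. Of the 31 genes, 21 were higher and 0 lower, where 15.6% of all 11380 tested genes were called in either direction, 9.05% higher and 6.53% lower. The test without adjustment gave 22 higher and 0 lower at p under 0.05, a threshold at which no share over all genes was computed. DESeq2 called 14 higher and 0 lower, and 463 genes in all. The median change was 0.39, against -0.0073 over all tested genes. The 31 genes summed to 4807 and 4819 CPM in 2246 and 1856 Pdcd1-detected cells, against 3359 and 3641 CPM in the rest. The increase spanned the roles, with 4 of 5 subunits, 7 of 9 inhibitors, 6 of 13 adaptors, ligases and kinases and 4 of 4 other targets higher.

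Among subunits Nfkb1 had 223 and 202 CPM in Pdcd1-detected cells, against 125 and 123 CPM in the rest. It was higher by 0.80 ± 0.056 (adjusted p = 6.92e-44). Rel had 137 and 153 CPM, against 85.8 and 96.4 CPM, and was higher by 0.69 ± 0.064. Rela was not called, at 47.2 and 42.1 CPM in Pdcd1-detected cells and 40.7 and 38.5 CPM in the rest. Relb was higher by 0.34, with 0.19 in replicate 1 and 0.50 in replicate 2. Among inhibitors Nfkbia had 1645 and 1634 CPM, against 1079 and 1170 CPM, higher by 0.57 ± 0.036 (adjusted p = 1.14e-52). Nfkbid, a nuclear IkB protein that acts with NF-kB dimers on DNA in lymphocytes, had 92.1 and 93.1 CPM, against 56.9 and 60.8 CPM, higher by 0.68 ± 0.077. For each of these called genes both Pdcd1-detected sums lay above both sums of the rest. Tnfaip3 was higher by 0.36, but this was 0.54 in replicate 1 and 0.18 in replicate 2.

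Traf1 had 482 and 454 CPM in Pdcd1-detected cells, against 275 and 290 CPM in the rest, and was higher by 0.75 ± 0.046 (adjusted p = 1.03e-57). Map3k14, the kinase NIK that drives the alternative pathway, had 30.9 and 34.9 CPM, against 18.3 and 20.4 CPM, higher by 0.78 ± 0.13 (adjusted p = 3.55e-08); this was its single call among the 6 splits, and without thinning the change was 0.42. Map3k8, a kinase that is held by the Nfkb1 precursor and links the pathway to MAP kinases, had 87.9 and 75.9 CPM, against 53.0 and 56.7 CPM, higher by 0.61 ± 0.081. Birc3, an inhibitor-of-apoptosis ubiquitin ligase, had 55.6 and 64.7 CPM, against 35.2 and 45.2 CPM, higher by 0.61 ± 0.094. The upstream scaffold Bcl10 and Ikbkb, the catalytic subunit of IkB kinase, were not called. Cd83 changed most, with 35.7 and 18.3 CPM in Pdcd1-detected cells, against 9.68 and 5.24 CPM in the rest, higher by 1.88 ± 0.15 (adjusted p = 6.75e-32).

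Of 50 tested genes of a wider NF-kB list, 25 were higher and 3 lower, among them 13 and 1 of 18 known targets and 12 and 2 of 32 receptors and upstream components. Il1r2, a decoy receptor for IL-1, had 132 and 109 CPM, against 34.1 and 29.1 CPM in the rest (1.95). Il1rl1, the IL-33 receptor, had 3.57 and 4.31 CPM, against 1.33 and 1.28 CPM (1.59), but at 1000 UMIs it was at 0.68 (adjusted p = 0.549). Il2ra, the IL-2 receptor alpha chain, had 67.4 and 55.0 CPM, against 25.1 and 22.2 CPM (1.40). The 3 lower genes were the chemokine Cxcl10 (-0.77), the TNF receptor adaptor Tradd (-0.32) and Rbck1, a part of the linear ubiquitin ligase (-0.41, with -0.55 and -0.27 in the 2 libraries); DESeq2 called none of these 3. A list of 10 immediate-early and heat shock genes that tissue dissociation, but also activation, can induce summed to 6116 and 6031 CPM in Pdcd1-detected cells, against 4973 and 5275 CPM in the rest, with 9 of 10 higher and 1 lower. In cells at or below the median of that list (6 UMIs in both libraries; a comparison chosen after seeing the data), 20 of the 31 genes were called and Nfkbia was higher by 0.67. The 5 neutrophil markers, none of which was at 0, were all lower (556 and 727 CPM, against 1726 and 2818 CPM), and without cells that carry markers of other types 20 were called. Of 10 cycling genes, 9 were lower, and without cycling cells 20 were called. In the order given, these runs called 1153, 1729 and 1299 genes in all, against 1773 in the main run.

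Cells in which Itgae, the alpha chain of the epithelial-binding integrin CD103, and Cd8a were detected together showed the opposite picture. Of the 31 genes, 20 were lower and 1 higher, where 33.9% of 11251 tested genes were called, 15.5% higher and 18.4% lower. The median change was -0.48, against -0.0055 over all genes. The 31 genes summed to 2266 and 2300 CPM in 2318 and 2368 co-detected cells, against 3807 and 4071 CPM in all others. Lower were 4 of 5 subunits, 8 of 9 inhibitors, 6 of 13 adaptors, ligases and kinases and 2 of 4 other targets. The inhibitors summed to 904 and 887 CPM, against 1953 and 2149 CPM, and the subunits to 249 and 251 CPM, against 401 and 405 CPM. Most of the difference in the inhibitor sum was Nfkbia.

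Nfkbia had 485 and 432 CPM in co-detected cells, against 1284 and 1380 CPM in all others. This was a change of -1.51 ± 0.042 (adjusted p = 4e-261), its largest in the 6 splits. Nfkbid had 24.5 and 26.5 CPM, against 68.8 and 72.1 CPM (-1.44 ± 0.11, adjusted p = 8.22e-39). Tnfaip3 had 163 and 192 CPM, against 286 and 371 CPM (-0.86 ± 0.054). In all 3 inhibitors the sums of the co-detected cells lay below those of the other cells. Nfkb1 had 71.2 and 75.4 CPM, against 152 and 144 CPM (-0.98 ± 0.072, adjusted p = 6.74e-41). Map3k8, whose protein is bound by the product of Nfkb1, had 26.5 and 26.0 CPM, against 63.8 and 65.4 CPM (-1.27 ± 0.11). Malt1, the protease of the complex that carries the T cell receptor signal to NF-kB, had 43.0 and 34.2 CPM, against 69.7 and 79.8 CPM (-0.93 ± 0.095). Traf1 had 179 and 169 CPM, against 328 and 337 CPM (-0.91 ± 0.054). Icam1, an adhesion ligand and a standard NF-kB target, had 53.6 and 53.4 CPM, against 97.5 and 112 CPM (-0.94 ± 0.082). Each of these called genes had separate sums in the 2 classes. Cd83 had 4.90 and 2.54 CPM in co-detected cells and 15.0 and 7.70 CPM in the others (-1.58).

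DESeq2 called 14 members, all lower, and 1232 genes in all. The 1 higher gene was Tank, an adaptor that binds TRAF proteins and the non-canonical IkB kinases, which had 75.3 and 84.1 CPM in co-detected cells and 64.4 and 66.7 CPM in the others, higher by 0.31 ± 0.081 (adjusted p = 0.000756). Neither DESeq2 nor thinning to 1000 UMIs called any member higher. Ikbke, one of those kinases, was lower by 0.48, with -0.13 in replicate 1 and -0.92 in replicate 2. Traf2 (-0.36 and -0.15 by library) and Tnip2, a partner of Tnfaip3 (-0.94 and -0.37 by library), were also called with unequal sizes. Not called were Bcl3, Birc2, Bcl10, Ikbkb, Rela, Tnfaip8, Cflar, Traf3, Traf6 and Map3k14. For Birc2, an abundant ubiquitin ligase of TNF receptor signalling, the values were 161 and 181 CPM in co-detected cells and 179 and 197 CPM in the others, and the ranges overlapped. Bcl10, the scaffold partner of Malt1, had 115 and 129 CPM, against 125 and 130 CPM.

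The wider list had 7 of 50 genes higher and 29 lower, with 17 of 18 known targets lower and none higher. Cd28, the co-stimulatory receptor, had 81.9 and 60.7 CPM, against 337 and 373 CPM (-2.29). Il2, the T cell growth factor, had 6.92 and 7.06 CPM, against 37.8 and 39.4 CPM (-2.44). Il1rl1 had 0 and 1 UMIs in co-detected cells and 38 and 36 UMIs in the others, so no fold is given. Higher were Rbck1, with 148.5 and 154 CPM against 99.5 and 101 CPM (0.62), Traf5, an adaptor of co-stimulatory TNF-family receptors (0.60), and Tnfrsf1a, the main TNF receptor (0.59). The 10 dissociation genes were all lower in these cells, 3267 and 3321 CPM against 5477 and 5758 CPM. In cells at or below the median of that list 18 members were called, 1 higher and 17 lower, and Nfkbia was at -1.10 with each of the 8 genes of the named rule still called. Against cells with neither Itgae nor Cd8a, 21 were called and Nfkbia was at -1.67. Neutrophil markers were lower (563 and 540 CPM, against 1732 and 2939 CPM; 5 of 5), as were 4 of 10 cycling genes, and 21 members were called without cells of other types and 21 without cycling cells. The runs of this paragraph called, in order, 3093, 4255, 3703 and 3650 genes in all, against 3810 in the main run.

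**Figure D2:**
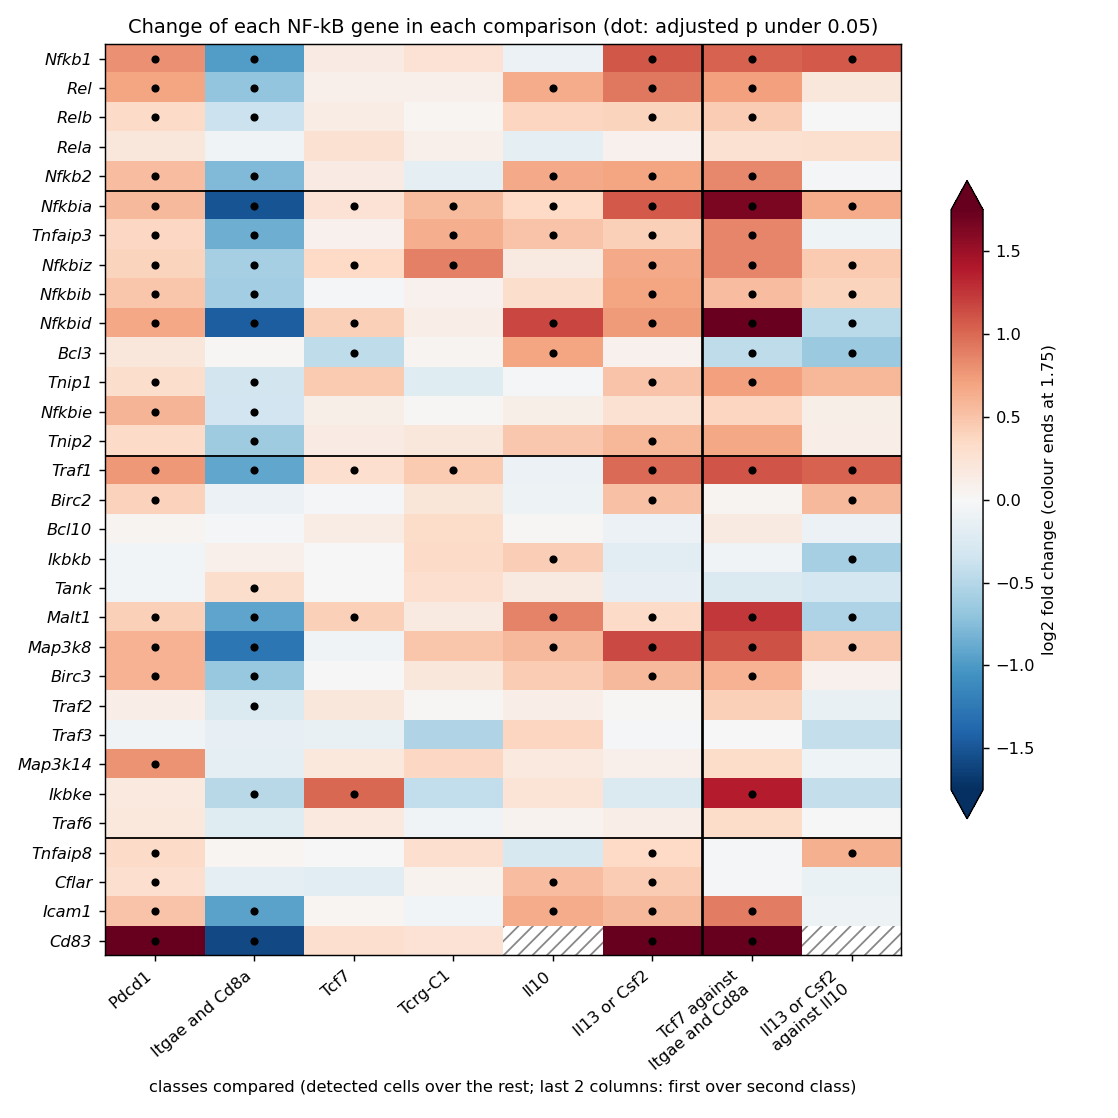
Log2 fold change (colour) of the 31 genes, grouped by role, in the 6 splits as detected over all other cells and, right of the vertical line, in the direct comparisons. A dot marks an adjusted p under 0.05; Cd83 is hatched in both columns with Il10 because it had few UMIs there. The Pdcd1 column has 21 dots and the Itgae and Cd8a column 21, of which 20 mark lower genes.

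Tcf7 encodes TCF-1, a transcription factor of memory-like and self-renewing T cells. Fewer NF-kB genes were called for cells with a Tcf7 UMI than in the splits above, although 25 of the 31 changes were above 0. Of the 31, 6 were higher and 1 lower, where 7.32% of 11282 tested genes were called, 3.47% higher and 3.86% lower. Their median change of 0.13 compared with -0.0018 over all genes, and the summed level was 4091 and 4142 CPM in 954 and 904 Tcf7-detected cells, against 3538 and 3765 CPM in the rest. Higher were 3 genes of the inhibitor list, among them the nuclear IkB genes Nfkbid and Nfkbiz, and 3 adaptors or kinases. Lower was Bcl3, also of the inhibitor list, and no subunit and no other target was called.

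Ikbke, an IkB-kinase-related kinase best known from the interferon response to viruses, had 27.3 and 33.2 CPM in Tcf7-detected cells, against 15.5 and 14.4 CPM in the rest (1.00 ± 0.18, adjusted p = 0.00238). Tcf7 was the single split of the 6 in which it was higher. Malt1 had 86.0 and 95.9 CPM, against 64.2 and 70.9 CPM (0.42 ± 0.096, adjusted p = 0.0137). Traf1 had 390.2 and 356 CPM, against 299.6 and 307 CPM (0.29 ± 0.055, adjusted p = 0.00321). For all 3 the classes did not overlap. Nfkbia had 1403 and 1430 CPM, against 1146 and 1215 CPM (0.25 ± 0.030, adjusted p = 4.54e-05). Nfkbiz, a nuclear IkB protein that assists transcription of secondary response genes, had 117 and 139 CPM, against 93.6 and 106 CPM (0.35 ± 0.082, adjusted p = 0.0159). Nfkbid had 74.1 and 92.99 CPM, against 61.2 and 63.0 CPM (0.41 ± 0.11, adjusted p = 0.0301), with 0.26 and 0.56 in the 2 libraries. Bcl3, a nuclear IkB protein that binds dimers of the Nfkb1 and Nfkb2 products, went the other way, with 47.6 and 42.1 CPM in Tcf7-detected cells and 61.4 and 59.4 CPM in the rest (-0.44 ± 0.12, adjusted p = 0.0406). Nfkb1 was not called, at 150 and 151 CPM in Tcf7-detected cells and 139 and 132 CPM in the rest (0.14, adjusted p = 0.34).

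Most of these calls depended on the fit and the draw of UMIs. DESeq2 and thinning to 1000 UMIs each called only Nfkbia and Traf1 among the 31, and the fit without the library block called only Ikbke. In that order these runs called 302, 371 and 235 genes in all, against 826 in the main run. Assigning cells without thinning called 19 members, 18 of them higher, and 3186 genes in all. Ikbke was at 0.59 (adjusted p = 0.0862) with a second random thinning, at 0.62 (adjusted p = 0.314) at 1000 UMIs and at 1.00 (adjusted p = 0.0596) with DESeq2. The second thinning also gave 0.20 for Malt1, 0.27 for Nfkbid and -0.15 for Bcl3, none of them called, and at 1000 UMIs Bcl3 was at 0.029 and Nfkbia at 0.16. Of the wider list, 6 of 50 were higher and 3 lower. Prkcq, the kinase that couples the T cell receptor to the Bcl10 complex, was higher by 0.84, Cxcl10 by 0.70 (not called by DESeq2, and at 0.33 at 1000 UMIs) and Cd28 by 0.67 (444 and 516 CPM, against 289 and 310 CPM). The chemokines Ccl3 (-0.85) and Ccl4 (-0.79) and the co-stimulatory receptor Tnfrsf9 (-0.57) were lower. Dissociation genes summed to 6118 and 5849 CPM, against 5076 and 5338 CPM, with 4 of 10 higher. In cells at or below their median 5 members were called; Bcl3 (adjusted p = 0.129), Nfkbid (0.184) and Nfkbiz (0.118) were not. Cycling genes were lower for 9 of 10, and 4 members were called without cycling cells. Neutrophil markers were lower for 5 of 5 (114 and 597 CPM, against 1650 and 2684 CPM), and 8 members were called without cells of other types. The run low in dissociation genes called 852 genes in all, that without cycling cells 562 and that without other types 977.

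Set directly against the Itgae and Cd8a co-detected cells, Tcf7-detected cells were higher for 17 and lower for 1 of the 31 genes, where 27.8% of 9189 tested genes were called, 14.9% higher and 13% lower. DESeq2 called 9, all higher, and 687 genes in all. The 31 genes summed to 4139 and 4148 CPM in 919 and 863 Tcf7-detected cells, against 2257 and 2270 CPM in 2283 and 2327 co-detected cells. The members had a median change of 0.61 and all genes one of -0.0031. These cells are those of the splits above, so the comparison is not independent of them. Nfkbid had 75.5 and 94.3 CPM in Tcf7-detected cells, against 24.3 and 25.9 CPM in co-detected cells (1.72 ± 0.16, adjusted p = 1.08e-25). Nfkbia had 1430 and 1448 CPM, against 482 and 421 CPM (1.64 ± 0.049). Malt1 had 89.3 and 96.7 CPM, against 43.6 and 33.3 CPM (1.24 ± 0.14). Ikbke had 26.9 and 34.0 CPM, against 14.3 and 8.62 CPM (1.37 ± 0.25, adjusted p = 4.08e-07), with 0.86 and 1.96 by library. No sum of the co-detected cells reached those of the Tcf7-detected cells for these 4 genes. Map3k8 (1.11), Traf1 (1.10), Nfkb1 (1.03) and Icam1 (0.89) were the next in size among genes that reached 20 CPM in 1 class. Below that level, Cd83 had 15.97 and 10.1 CPM, against 4.98 and 2.59 CPM (1.74 ± 0.39). Ikbke was not called by DESeq2, and was at 0.60 with a second thinning and 0.85 at 1000 UMIs, not called in either. Bcl3 was again the one lower gene, with 48.6 and 39.4 CPM in Tcf7-detected cells and 57.4 and 60.6 CPM in co-detected cells (-0.45 ± 0.16, adjusted p = 0.0192), at -0.28 and -0.64 by library. The wider list had 24 of 49 higher and 7 lower, led by Cd28 (2.79), Il2 (2.41) and the co-stimulatory receptor Tnfrsf4 (2.29) upward and Rbck1 (-0.80), Tnfrsf1a (-0.74) and the Tnfaip3-binding protein Tnip3 (-1.27, with -1.71 and -0.78 by library) downward. Tnip3 was not called by DESeq2 (adjusted p = 0.809) and was at 0.22 without thinning. DESeq2 did not call Tnfrsf1a either (adjusted p = 0.279). All 10 dissociation genes were higher (6210 and 5882 CPM, against 3260 and 3289 CPM), and in cells at or below the median of that list 14 members were called, all higher, with Nfkbid at 1.503 and Nfkbia at 1.27. The neutrophil markers were lower for 5 of 5 by the test, although their sums overlapped at 112 and 609 CPM, against 569 and 543 CPM. Cycling genes were lower for 8 of 10. Without cells of other types 18 members were called, and 19 without cycling cells. Over all genes the run low in dissociation genes called 1753, that without other types 2570 and that without cycling cells 2390. The main run called 2558.

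**Figure D3:**
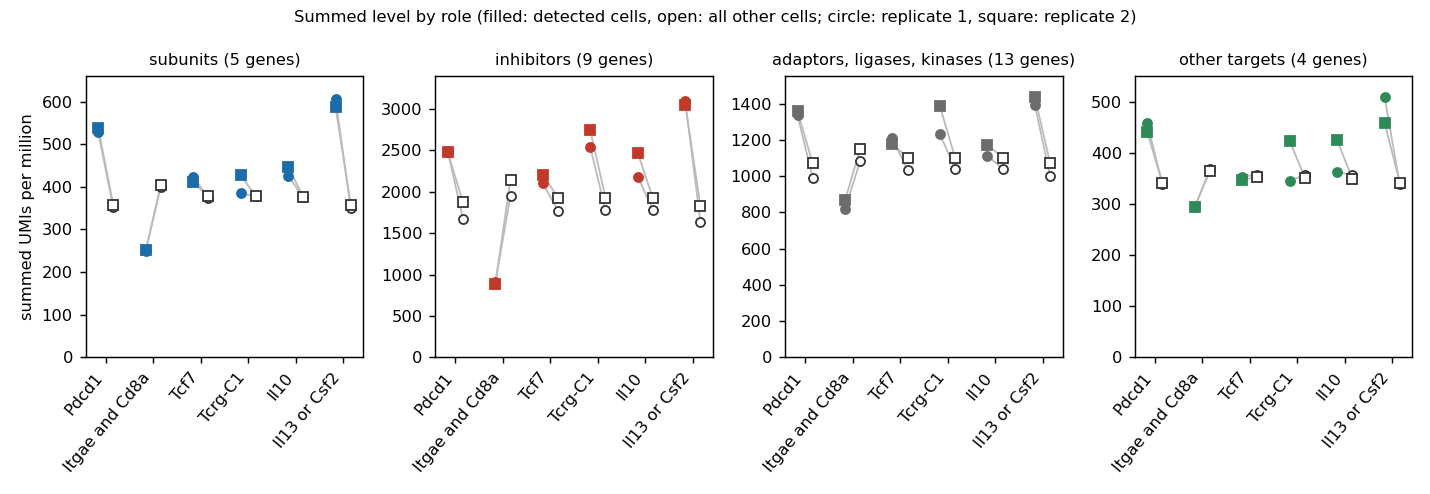
Summed CPM of the members of each role in the 6 splits, with detected cells filled and all other cells open, circles for replicate 1 and squares for replicate 2, and grey lines joining the classes of a library. Inhibitors stand at 904 and 887 in Itgae and Cd8a co-detected cells, against 1953 and 2149 in the others, and at 3099 and 3053 in Il13 or Csf2 cells, against 1632 and 1831. Most of each of these differences is Nfkbia.

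Tcrg-C1 encodes a constant region of the T cell receptor gamma chain; near-identical copies of this gene exist, so its counts are uncertain. Only 266 and 303 cells had a UMI. Of the 31 genes, 4 were higher and 0 lower, where 2.39% of 11213 tested genes were called, 1.4% higher and 0.99% lower. Without adjustment 9 were higher and 0 lower at p under 0.05, with no share over all genes computed. That pattern did not hold, with 6 higher and 2 lower in a second random thinning and 4 and 4 at 1000 UMIs. DESeq2 also called 4 higher and 0 lower, and 109 genes in all. The summed level was 4504 and 4979 CPM in Tcrg-C1-detected cells, against 3556 and 3763 CPM in the rest, and the median change was 0.15, against -0.042 over all genes. Of the 4 genes, 3 were from the inhibitor list, among them the nuclear IkB gene Nfkbiz. Nfkbiz had 178 and 187 CPM in detected cells, against 93.6 and 106 CPM (0.88 ± 0.13, adjusted p = 4.71e-09). Tnfaip3 had 424 and 502 CPM, against 264 and 339 CPM (0.63 ± 0.086, adjusted p = 9.7e-11). Nfkbia had 1641 and 1799 CPM, against 1154 and 1216 CPM (0.55 ± 0.052, adjusted p = 1.26e-23). The classes did not overlap for any of these 3 genes. Traf1 had 414 and 421 CPM, against 303 and 308 CPM (0.46 ± 0.089, adjusted p = 2.5e-05). Nfkb1 was not called, at 143 and 176 CPM in detected cells and 140 and 132 CPM in the rest (0.26, adjusted p = 0.52).

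Dissociation genes summed to 7058 and 8367 CPM, against 5107 and 5307 CPM, with 5 of 10 higher and 1 lower. In cells at or below the median of that list edgeR called 0 of the 31 genes, with 1 higher and 1 lower at unadjusted p under 0.05. Only 102 and 82 Tcrg-C1-detected cells were left in this run, and it called 25 genes in all, against 268 in the main run. Nfkbiz was then at 0.28, Tnfaip3 at 0.26, Nfkbia at 0.19 and Traf1 at 0.32, each with an adjusted p of 0.999. Of the wider list, 4 of 50 were higher, among them the signalling adaptor Tab2 (0.65), the stress protein Gadd45b (0.44) and the IL-18 receptor chain Il18r1 (0.54, with 0.71 and 0.35 by library). Tnfrsf9 (-0.60) and Ccl3 (-0.30) were lower, and the CPM ranges of Ccl3 overlapped, at 597 and 786 CPM against 769 and 953 CPM. DESeq2 did not call Tab2, Il18r1, Tnfrsf9 or Ccl3, none of the 5 was called without the library block, and Tab2 was at 0.087 at 1000 UMIs and -0.28 in the cells low in dissociation genes. Neutrophil markers were lower for 5 of 5 (108 and 374 CPM, against 1580 and 2602 CPM) and cycling genes for 5 of 10, and 4 members were called without either kind of cell. Without cells of other types 232 genes were called in all, and without cycling cells 201.

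Il10 encodes an anti-inflammatory cytokine, and cells with an Il10 UMI had higher levels of members of every role. Of the 31 genes, 11 were higher and 1 lower, where 5.27% of 11451 tested genes were called, 3.25% higher and 2.02% lower. DESeq2 called 7 higher and 0 lower, and the fit without the library block called 6. Over all genes these runs called 219 and 272, against 603 in the main run. The median change was 0.31, against -0.022 over all genes, and the summed level was 4088 and 4518 CPM in 604 and 742 Il10-detected cells, against 3551 and 3750 CPM in the rest. Higher were 2 of 5 subunits, 4 of 9 inhibitors, 3 of 13 adaptors, ligases and kinases and 2 of 4 other targets.

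Nfkbid had 133 and 127 CPM in Il10-detected cells, against 59.1 and 61.6 CPM in the rest (1.16 ± 0.10, adjusted p = 4.18e-07), its highest level in any detected class of the 6 splits. Bcl3 had 112 and 71.1 CPM, against 58.4 and 57.7 CPM (0.69 ± 0.14, adjusted p = 0.00428), with 0.99 in replicate 1 and 0.37 in replicate 2. Malt1 had 102 and 130 CPM, against 64.1 and 69.4 CPM (0.87 ± 0.11, adjusted p = 2.43e-05). For all 3 both detected sums lay above those of the rest. Rel had 133 and 156 CPM, against 91.6 and 101 CPM (0.65 ± 0.090, adjusted p = 0.000107). Nfkb2, the precursor of the alternative-pathway subunit, had 47.5 and 63.9 CPM, against 37.2 and 37.6 CPM (0.66 ± 0.15, adjusted p = 0.0142), with 0.41 and 0.83 by library. Icam1 had 120 and 162 CPM, against 89.6 and 99.7 CPM (0.65 ± 0.097, adjusted p = 0.000227). Cflar, which blocks caspase activation at death receptors, had 133 and 136 CPM, against 94.8 and 99.1 CPM (0.53 ± 0.091). Map3k8 was higher by 0.57 ± 0.12, Tnfaip3 by 0.50 ± 0.055 and Ikbkb by 0.43 ± 0.089. Nfkbia had 1320 and 1548 CPM, against 1156 and 1211 CPM (0.34 ± 0.041, adjusted p = 1.84e-05). Assigning cells without thinning gave smaller changes, of 0.061 for Nfkbia (adjusted p = 0.53), 0.14 for Rel, 0.16 for Nfkb2, 0.23 for Cflar, 0.28 for Map3k8, 0.35 for Icam1 and 0.47 for Bcl3, none of them called, and of 0.63 for Nfkbid and 0.44 for Malt1, both called. The fit without the block ended the calls of Nfkbia (adjusted p = 0.0708), Bcl3 (0.0502) and Nfkb2 (0.0572).

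Nfkb1 was not called in Il10-detected cells, at 127 and 117 CPM against 140 and 134 CPM in the rest (-0.10, adjusted p = 0.68). Traf1 was also not called, at 278 and 272 CPM against 306 and 312 CPM. Cd83 had 0 and 3 UMIs in Il10-detected cells and 309 and 150 UMIs in the rest, 459 in all; it was the 1 lower gene, at a ratio of 0.140 per UMI counted (exact 95% interval 0.0287 to 0.411, counting error only). In the wider list 12 of 50 were higher and 3 lower. Ccl4 had 12269 and 12323 CPM in Il10-detected cells, against 3550 and 4158 CPM (1.74), and Ccl3 had 2086 and 2661 CPM, against 712 and 859 CPM (1.66); both are chemokines and known NF-kB targets. Irf4, a T cell receptor-induced transcription factor, was higher by 1.51. Lower were the cytokine Lta (-1.05), Il18r1 (-0.72) and Il1r2 (-0.83, with -1.26 and -0.49 by library). DESeq2 did not call Il1r2 (adjusted p = 0.2765), and edgeR without the block called neither Il1r2 (0.105) nor Lta (0.0613). In cells low in dissociation genes edgeR called none of them, with adjusted p of 0.102 for Lta, 0.0920 for Il18r1 and 0.0796 for Il1r2. Dissociation genes had overlapping sums, 5448 and 5334 CPM in Il10-detected cells and 5129 and 5371 CPM in the rest, with 3 of 10 higher and 5 lower. In cells at or below their median 9 members were called, with Nfkbid at 1.33 and Nfkbia at 0.43, while Nfkb2 (adjusted p = 0.118) and Map3k8 (0.0999) were not. Neutrophil sums overlapped too, at 1331 and 2084 CPM against 1563 and 2581 CPM, and 12 members were called without cells of other types. The run low in dissociation genes called 367 genes in all and that without other types 642, against 603 in the main run. Of the cycling genes 1 of 10 was lower.

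Il13, a type 2 cytokine, and Csf2, which encodes GM-CSF, marked the detected class with the highest summed level of the 31 genes. That sum weighs Nfkbia most, and single genes differed. Nfkbid, Malt1 and Bcl3 had higher levels in Il10-detected cells in both libraries. So did Nfkbiz in Tcrg-C1-detected, Map3k14 in Pdcd1-detected and Ikbke in Tcf7-detected cells. Of the 31 genes, 20 were higher and 0 lower in cells with a UMI of Il13 or Csf2. Of 11426 tested genes 17.2% were called, 10.3% higher and 6.91% lower. Without adjustment 21 were higher and 1 lower at p under 0.05, with no share over all genes computed. DESeq2 called 15 higher and 0 lower, and 593 genes in all. The 31 genes summed to 5607 and 5536 CPM in 1679 and 1415 detected cells, against 3321 and 3604 CPM in the rest. The median change was 0.44, against -0.012 over all genes. Higher were 4 of 5 subunits, 7 of 9 inhibitors, 5 of 13 adaptors, ligases and kinases and 4 of 4 other targets. Split by each cytokine alone, 16 members were called for Il13, with Nfkbia at 0.85, and 20 for Csf2, with Nfkbia at 1.19.

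Nfkbia had 2249 and 2143 CPM in Il13 or Csf2 cells, against 1029 and 1132 CPM in the rest (1.07 ± 0.048, adjusted p = 1.27e-77). Nfkbib, the related inhibitor IkB-beta, had 115 and 102 CPM, against 69.2 and 68.9 CPM (0.70 ± 0.083). Nfkbid had 103 and 90.2 CPM, against 56.99 and 62.2 CPM (0.75 ± 0.088). The 3 IkB genes had separate sums in the classes. Nfkb1 had 263 and 243 CPM, against 124 and 121 CPM (1.084 ± 0.065, adjusted p = 2e-49). Rel had 156 and 176 CPM, against 85.5 and 95.8 CPM (0.92 ± 0.073). Rela was not called, at 39.0 and 43.4 CPM in detected cells and 42.0 and 38.4 CPM in the rest. Relb was higher by 0.39, with 0.53 and 0.22 by library. Map3k8 had 121 and 103 CPM, against 50.3 and 54.5 CPM (1.15 ± 0.086). Traf1 had 528 and 555 CPM, against 278 and 284 CPM (0.99 ± 0.055). Both genes thus stood above the rest in both libraries without overlap. Cd83 had 63.7 and 27.4 CPM, against 7.31 and 4.72 CPM (2.96 ± 0.16, adjusted p = 1.33e-59).

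In the wider list 24 of 50 genes were higher and 3 lower. Il2 had 204 and 263 CPM in Il13 or Csf2 cells, against 11.9 and 10.1 CPM in the rest (4.44), Il1r2 was higher by 2.91 and Lta by 2.47. Lower were Tnfrsf1a (-0.68), Traf5 (-0.38) and Rbck1 (-0.23), none of which DESeq2 called. Dissociation genes summed to 7537 and 7459 CPM, against 4845 and 5149 CPM, with 9 of 10 higher. In cells at or below their median 14 members were called, all higher, with Nfkbia at 0.97, Nfkbid at 0.68 and Cd83 at 2.52. Neutrophil markers were lower for 5 of 5 (498 and 847 CPM, against 1685 and 2737 CPM), and 20 members were called without cells of other types. Cycling genes were lower for 6 of 10, and 21 members were called without cycling cells. In cells low in dissociation genes 772 genes were called in all, without other types 1796 and without cycling cells 1759. The main run called 1965.

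**Figure D4:**
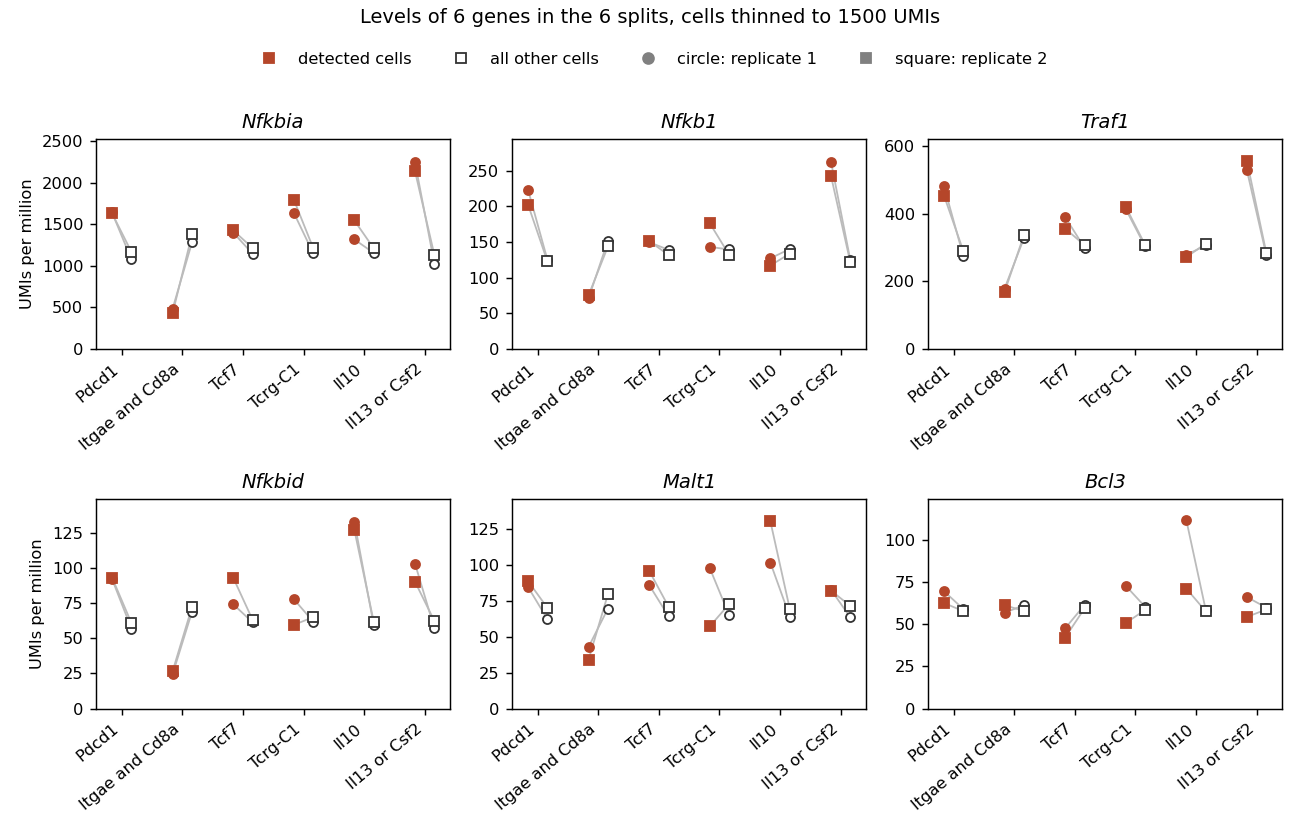
CPM of Nfkbia, Nfkb1, Traf1, Nfkbid, Malt1 and Bcl3 in the 6 splits, with detected cells filled, all other cells open, circles for replicate 1 and squares for replicate 2. Nfkbia is at 2249 and 2143 in Il13 or Csf2 cells and at 485 and 432 in Itgae and Cd8a co-detected cells, while Nfkbid is at 133 and 127 and Bcl3 at 112 and 71.1 in Il10 cells.

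The Il13 or Csf2 cells and the Il10 cells were also compared directly, leaving out cells in both classes. The 31 genes divided, with 9 higher and 4 lower in Il13 or Csf2 cells, where 14.7% of 8291 tested genes were called, 8.36% higher and 6.3% lower. DESeq2 called 3, all higher, and 261 genes in all. The members had a median change of 0.0065 and all genes one of 0.0014. The 31 genes summed to 5628 and 5556 CPM in 1629 and 1366 Il13 or Csf2 cells, against 4014 and 4486 CPM in 554 and 693 Il10 cells. Most of this difference was Nfkbia, so the sum does not describe the members at large. Nfkb1 had 266.5 and 246 CPM in Il13 or Csf2 cells, against 126.5 and 115 CPM in Il10 cells (1.079 ± 0.11, adjusted p = 3.15e-20). Traf1 had 531.5 and 564.5 CPM, against 265 and 270 CPM (1.03 ± 0.086, adjusted p = 1.17e-30). Nfkbia had 2258 and 2155 CPM, against 1264 and 1528 CPM (0.65 ± 0.059, adjusted p = 2.98e-26). These 3 genes did not overlap between the classes. Tnfaip8, which is induced by TNF and blocks apoptosis, had 200 and 166 CPM, against 112 and 122 CPM (0.62 ± 0.12). Birc2 had 232.5 and 266 CPM, against 176 and 160 CPM (0.57 ± 0.10). Map3k8 (0.47), Nfkbiz (0.46) and Nfkbib (0.39) were also higher. Cd83 had 217 UMIs in Il13 or Csf2 cells and 2 in Il10 cells, a ratio of 45.2 per UMI counted (exact 95% interval 12.4 to 376, counting error only).

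The 4 lower genes were the nuclear IkB genes Bcl3 and Nfkbid, the IkB kinase gene Ikbkb and Malt1. Bcl3 had 66.0 and 54.8 CPM in Il13 or Csf2 cells, against 116 and 73.2 CPM in Il10 cells (-0.64 ± 0.15, adjusted p = 0.000393). Ikbkb had 82.4 and 103 CPM, against 135 and 142 CPM (-0.59 ± 0.13, adjusted p = 6.68e-05). Malt1 had 82.4 and 82.2 CPM, against 102 and 134 CPM (-0.54 ± 0.13, adjusted p = 0.000879), with -0.32 and -0.72 by library. Nfkbid had 104 and 90.5 CPM, against 137 and 130 CPM (-0.47 ± 0.13, adjusted p = 0.00226). The sums of the 2 classes were separate for all 4. Rel was not called, at 156 and 179 CPM in Il13 or Csf2 cells and 130 and 159 CPM in Il10 cells (0.20, adjusted p = 0.27). The wider list had 14 of 49 higher and 7 lower, led by Il2 (4.62), Lta (3.23) and Il1r2 (3.14) upward and Ccl4 (-1.69), Irf4 (-1.49) and Ccl3 (-1.15) downward. Irf4 was not called by DESeq2 (adjusted p = 0.315). Nor did edgeR call it at 1000 UMIs (0.0754) or in cells low in dissociation genes (0.140).

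The 3 members that DESeq2 called between these cytokine classes were all higher, so none of the 4 lower genes was called, nor were Tnfaip8, Birc2 and Cd83 (adjusted p = 0.0835). Dissociation genes were higher for 8 and lower for 1 of 10 (7566 and 7518 CPM, against 5344 and 5301 CPM), and in cells at or below their median 6 members were called, all higher, with Bcl3 at -0.52 (adjusted p = 0.203) and Ikbkb at -0.54 (adjusted p = 0.0778). Neutrophil markers were lower for 5 of 5 (507 and 835 CPM, against 1434 and 2147 CPM), and 12 members were called without cells of other types. The run low in dissociation genes called 482 genes in all and that without other types 1212, against 1215 in the main run.

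**Figure D5:**
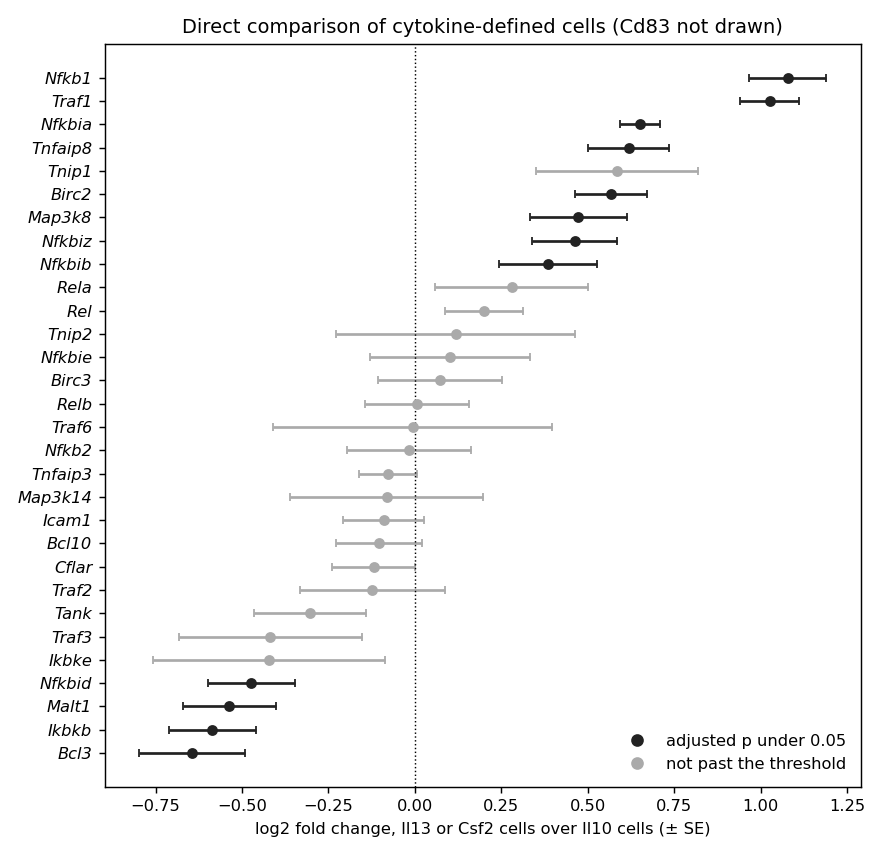
Log2 fold change with its standard error of 30 of the genes in Il13 or Csf2 cells over Il10 cells; black marks an adjusted p under 0.05. Nfkb1 at 1.079 and Traf1 at 1.03 lie furthest to the right and Bcl3 at -0.64 furthest to the left.

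Across the 6 splits Nfkbia was called each time, between -1.51 in Itgae and Cd8a co-detected cells and 1.07 in Il13 or Csf2 cells. Nfkbid, Nfkbiz, Tnfaip3, Traf1 and Malt1 were each higher in 4 splits and lower in 1. At the other end Rela, Traf3, Traf6 and Bcl10 were called in none, and Rela stayed between -0.18 and 0.26. Traf6 and Traf3 had few UMIs, so a small change in them was not detectable at this depth. Because the splits share cells, these counts describe the members and are not separate tests.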

How the data were processed

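RNA was measured as 3′ UMI counts in 2 replicate libraries of pooled, hashed CD4 T cells, and the hashing antibodies in 2 further libraries. The values are raw counts per gene and barcode as the authors deposited them, made with Cell Ranger 3.1.0 on mm10 per the submitters' processing notes. Cells were filtered and thinned as described above (random seed 20), assigned to classes by detection of the split gene, and summed per library and class. Sums were tested with edgeR 4.0.16 in R 4.3.3 (quasi-likelihood test, TMM normalization, filterByExpr, Benjamini-Hochberg adjustment over all tested genes); the split genes were left out of their own test. The library was the block because both classes came from the same pooled cells. The SE of a fold change was its size divided by the square root of F. Il1r1 and Ltbr of the wider list of 52 genes failed the filter in each comparison, and Il1rl1 in the direct ones.

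Named were the up to 8 called members of each comparison with the largest change and at least 20 CPM in the higher class, Nfkbia and Nfkb1 throughout, and up to 3 genes per direction of the wider list; other members were named after their values were seen. Members and lists were chosen with earlier results of these data known. Alternatives were DESeq2 1.42.0, other normalization, filters, thinning and cell sets, and the fit without the block. T cell identity rested on 8 markers, which summed to 12072 and 11766 CPM. The script was tested on simulated data with 11306 genes for the Itgae and Cd8a classes, where it recovered 85.71% of genes changed by 1.0 on the log2 scale and 43.00% of those changed by 0.5; with 11300 genes for the Tcrg-C1 classes the shares were 38.00% and 11.00%. The simulated spread between libraries was set to a small fixed value for every gene and not estimated from these data. These shares hold for that setting only. UMI totals limit precision, and all intervals cover counting error only. Python 3.11.15 with scipy 1.17.1 was used for sums and intervals. Doublets were not called; leaving out the deepest 5% of cells stood in for this.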

Additional observations from a re-analysis of the deposited data

Results flagged for a closer look

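The libraries of hashing antibodies held gene counts in place of antibody counts. Of their 31053 features 0 were hashtags, and the 31 genes had 565 UMIs in the hashtag library of replicate 1 and 752 UMIs in that of replicate 2, out of 157432 and 208698 UMIs in all. This signal was listed because no comparison used these libraries; where it came from was not tested.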

How the results depend on the processing

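The count of members called for Pdcd1, for Itgae with Cd8a and for Il13 or Csf2 stayed within 1.5 times its main value in every alternative run. For Tcf7 (7 called) DESeq2 gave 2, no replicate block 1, a second random thinning 4 and thinning to 1000 UMIs 2. No thinning gave 19 and leaving out cycling cells 4. In that order these runs called 302, 235, 721, 371, 3186 and 562 genes in all, against 826 in the main run. For Tcrg-C1 (4 called) thinning to 1000 UMIs gave 2, no thinning 12 and cells low in dissociation genes 0. These runs called 88, 1113 and 25 genes in all, against 268 in the main run. For Il10 (12 called) DESeq2 gave 7, no replicate block 6 and no thinning 4. These runs called 219, 272 and 348 genes in all, against 603 in the main run. For Tcf7 against Itgae with Cd8a (18 called) DESeq2 gave 9, and 687 genes in all, against 2558 in the main run. For Il13 or Csf2 against Il10 (13 called) DESeq2 gave 3, no replicate block 8 and cells low in dissociation genes 6. These runs called 261, 722 and 482 genes in all, against 1215 in the main run. Without thinning deeper cells are more often assigned to a class. Whether this moved the counts was not tested, and nor were the causes of the other shifts. Over all genes, the fit called 1773 for Pdcd1, against 463 with DESeq2 and 577 without the replicate block.

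Some signs reversed, also for genes that the main test called (Tnip3, Tab2 and Bcl3). For Tcf7 at 1000 UMIs, Bcl3 was at 0.029 and Nfkb1 at -0.021. For Tcrg-C1 in cells low in dissociation genes, Nfkb1 was at -0.13 and Tab2 at -0.28. For Il10, Nfkb1 was at 0.039 with the second thinning and 0.088 at 1000 UMIs. For Tcf7 against Itgae with Cd8a, Tnip3 was at 0.22 without thinning. The cause was not tested. Leaving out a library leaves no residual degree of freedom, so a library alone gives a value with no test; such values stand beside the genes concerned.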
